A study of Mus musculus with 12 samples.

Results

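The genes examined here were the metalloproteinases and their inhibitors, chosen by name alone as the protein-coding genes whose symbols begin with Mmp, Adam, Adamts or Adamtsl and a number, together with Timp1 to Timp4. They made up 70 of the 28995 genes in the deposited tables, namely 19 MMP, 23 ADAM, 19 ADAMTS, 5 ADAMTSL and 4 TIMP genes. Wild-type C57BL/10 mice aged 3 days gave hindlimb muscle fibroblasts, which were grown in culture and treated for 48 hours, in medium with charcoal-stripped serum, with vehicle (DMSO), with 1 µM aldosterone, a steroid agonist of the mineralocorticoid receptor (MR), or with 1 µM spironolactone, an MR antagonist. No genetic change or disease model entered these groups. Poly(A) RNA was sequenced from 4 libraries per treatment, which came from 2 mice with 2 plates per mouse and treatment. Each library carried a sample number and a biol rep number, both 1 or 2, and libraries are listed below in the order 1 and 1, 1 and 2, 2 and 1, 2 and 2. Because plates of 1 mouse are not separate animals, p-values over 4 libraries measure partly the spread between plates.

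Matrix metalloproteinases (MMPs) are zinc-dependent enzymes that cut collagens and other components of the extracellular matrix (ECM), either after secretion or from the cell membrane. ADAMs are membrane proteins, many of which release the outer domains of growth factors, cytokines and receptors in a step called shedding. ADAMTS enzymes are secreted and cut proteoglycans or trim procollagens, while the related ADAMTS-like (ADAMTSL) proteins lack the catalytic domain and bind the microfibril network. Tissue inhibitors of metalloproteinases (TIMPs) bind the active site of these enzymes, and the balance between both sides sets how ECM is turned over in muscle repair and fibrosis. Transcript levels alone do not give enzyme activity, since most of these proteases are made as inactive precursors.

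The libraries held 19136923 to 30219185 reads counted on genes. Levels are given in RPKM (reads scaled to the gene length in kb and to the reads on genes of the library). Summed levels of 10 fibroblast markers ran from 6571 to 7126 with vehicle and from 5789 to 6371 with aldosterone. These groups did not overlap, and all 10 were detected above 3 reads. Single fibroblast markers moved in both directions. Pdgfra (log2 fold change 0.91) and Vim (0.48) were higher with aldosterone, and Col1a1 (-0.34) and Col3a1 (-0.43) lower, each without overlap of libraries. The other fibroblast markers overlapped between both treatments. Summed levels of markers of other cell types were far below those of the fibroblast markers, although single ones were not all low. The mural marker Cspg4 had mean normalized counts of 9145 with vehicle and 7404 with aldosterone, beside 3149 and 5912 for Pdgfra. The summed level of 8 myogenic markers was 13.3 to 18.8 with vehicle and 4.67 to 9.95 with aldosterone, with Pax7, Myf5, Myog and Ckm at 3 reads or fewer in every library. Among the others, only Acta1 was lower without overlap (mean normalized counts 539 and 236), while Des, Myh3 and Myod1 overlapped. For 5 endothelial markers the summed level was 4.15 to 4.53 against 5.36 to 5.74, without overlap, and all 5 were above 3 reads in some library. Of these, Kdr (log2 fold change 1.88) and Tek (0.23) were higher without overlap. Pecam1 was lower without overlap (mean normalized counts 6.57 and 2.85), and Cdh5 and Emcn overlapped. The summed level overlapped for the 7 of 8 macrophage markers in the tables (7.21 to 9.0 against 8.07 to 8.81, with Adgre1, Ptprc and Itgam at 3 reads or fewer). It also overlapped for 4 mural markers (37.9 to 55.7 against 30.0 to 47.4) and for 4 Schwann markers (6.04 to 7.71 against 7.53 to 11.3). Within these lists, the macrophage marker Cd14 (log2 fold change 0.69, adjusted p = 0.013, limma) was higher without overlap. So was the Schwann marker S100b (0.50, adjusted p = 0.0141, limma), and the other markers measured in these lists overlapped. The part of these shifts in the results below was not tested. In such bulk libraries, fewer cells expressing a gene and less RNA per cell cannot be told apart.

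Transcript levels were first compared between the genes per length, as RPKM. Inhibitor transcripts had the highest mean levels of the 70 genes. Timp2 had a mean level of 830.0 over the 12 libraries, Timp1 of 204 and Timp3 of 203. The near tie of the last 2 comes from pooling treatments. Timp3 was above Timp1 in all 4 vehicle libraries (means 243 and 214). It was below Timp1 in all 4 aldosterone libraries (131 and 174). The most abundant protease transcripts were Mmp14 at 122, a membrane-bound MMP that activates the precursor of Mmp2, and Adamts1 at 114, which cuts large proteoglycans. They were followed by Mmp2 (gelatinase A) at 83.3, Adamts5 (an aggrecanase) at 79.6 and the sheddase Adam9 at 71.5. Adamtsl4 had a level of 57.3, Mmp23 of 47.5, Adam15 of 35.4, Adamtsl3 of 25.8 and Adam10 of 25.1. In this order the ranges over the 12 libraries separated only Timp2 from Timp1 and Mmp23 from Adam15 among the neighbours down to Adam10. The ranges of all other neighbours down to Adam10 overlapped. Compared within each library, however, Timp3 was above Mmp14, Adamts1 above Mmp2 and Adam15 above Adamtsl3 in all 12. The remaining neighbours changed order between libraries, so their order is not settled here.

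**Figure D1:**
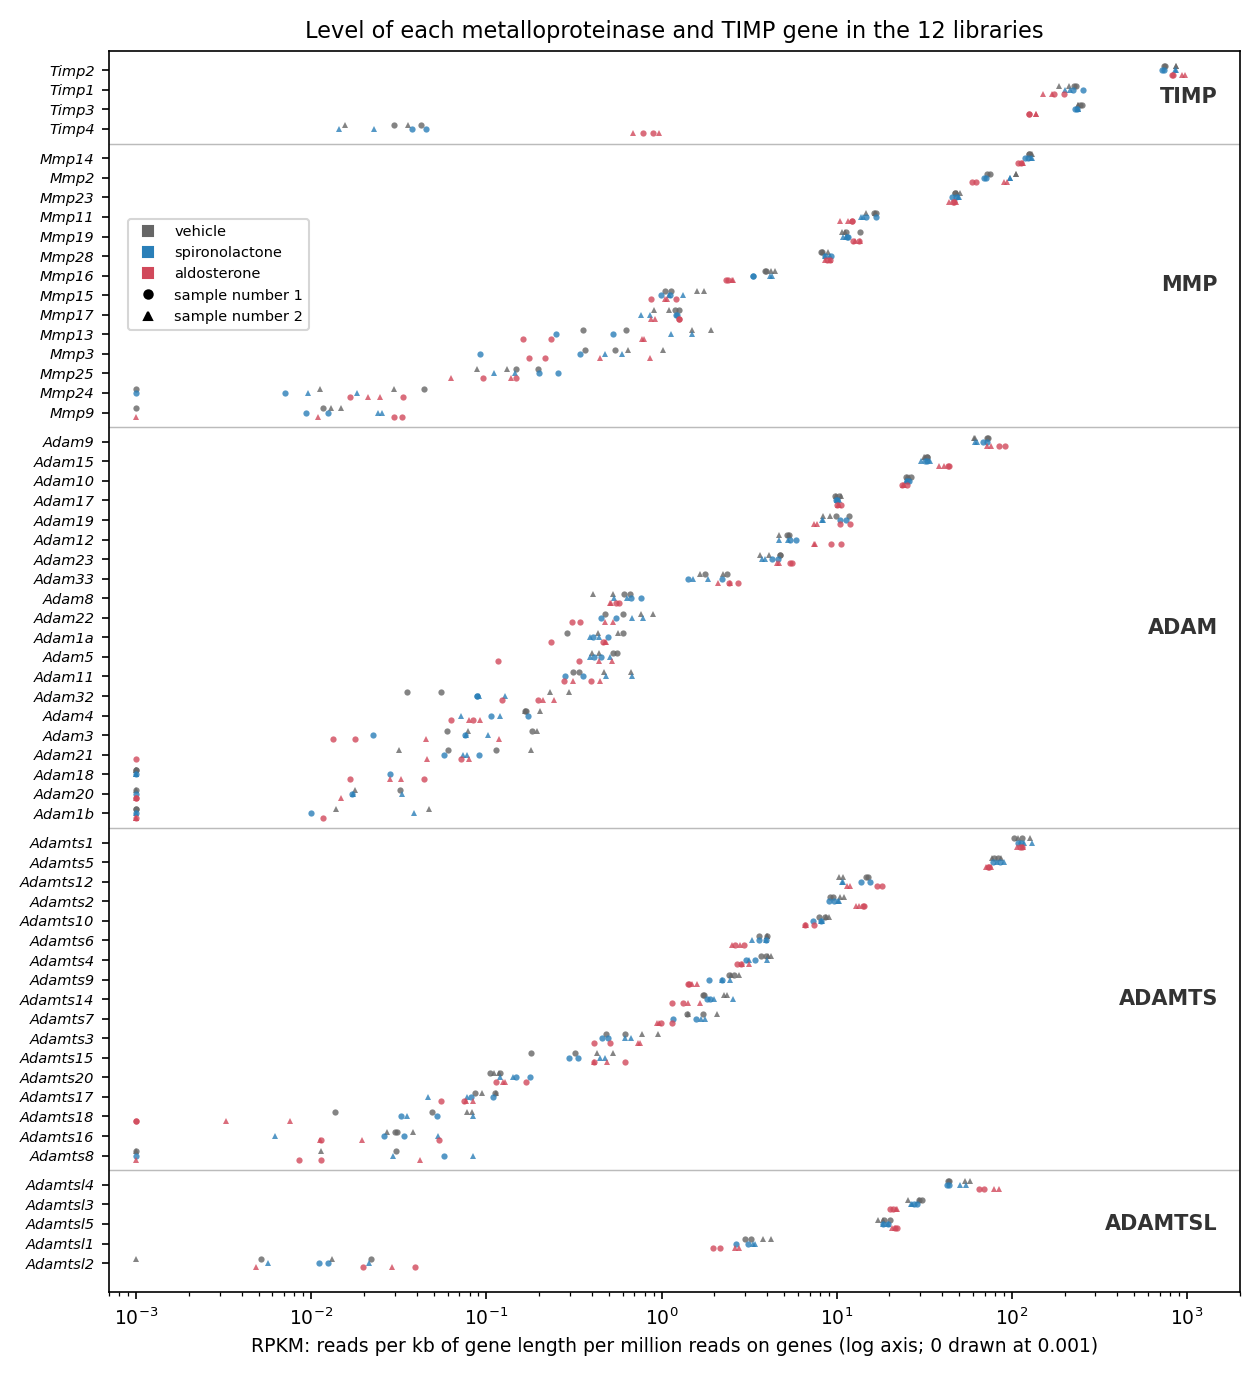
RPKM (log axis) in each of the 12 libraries for the 60 genes with a mean level of at least 0.01. Colours give the treatment and marker shapes the sample number; the abundant genes of each family lie close together in all treatments, while the red points of Timp4 (0.831 on average) stand apart from its vehicle points (0.0307 on average).

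At the low end, 13 of the 70 genes had at most 3 reads in every library, which is the floor of detection used here, and 48 had a mean of at least 10 reads. Genomic neighbours were often unequal. On chromosome 9, the files place Mmp13, Mmp12, Mmp3, Mmp10, Mmp8 and Mmp27 in a row between positions 7272514 and 7581886 (build mm39 by the submitters' notes). In this cluster the collagenase Mmp13 had a mean level of 0.811 and the stromelysin Mmp3 of 0.481, and the other 4 were at 3 reads or fewer in every library. On chromosome 8, the abundant Adam9 (71.5) lies 0.8 kb from Adam32, whose level was 0.149. Adamts1 and Adamts5 lie 53.1 kb apart on chromosome 16 and were both abundant.

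Aldosterone compared to vehicle treatment changed 21 of the 68 genes present in this table, of which 8 were higher and 13 lower at an adjusted p of at most 0.05 (limma on log2 of the normalized count plus 1, adjusted over all genes of the table by Benjamini-Hochberg). Of all 27319 genes, 5.68% were called higher and 4.74% lower, and among the 15245 genes with a mean of at least 10, in which 48 of the 68 genes fall, 9.65% and 8.09%. With the sample number of the labels as a block, 13 of the 68 were higher and 17 lower. With the 2 libraries of each sample number averaged, which leaves 2 values against 2, 3 were higher and 4 lower. Whether such 2 libraries are plates of 1 mouse is not given in the labels. Shares of all genes called with the block or with averaged libraries are not given here. The shares above therefore cannot be set beside those counts. Only 3 genes also passed the study's threshold of an absolute log2 fold change of 1, namely Timp4 and Adam18 among those higher (1.4% of all genes) and Adamts18 among those lower (0.666% of all genes). In 8 genes all aldosterone libraries lay above all vehicle libraries, and in 15 genes all lay below, against 7.55% and 6.9% of all genes. The median log2 fold change of the 48 genes was -0.12, with 19 of them positive, beside -0.0033 for the 15245 genes. By family, 1 of 4 TIMP genes was higher and 1 lower, none of 18 MMP genes was higher and 2 were lower, 4 of 22 ADAM genes were higher and 1 lower, 1 of 19 ADAMTS genes was higher and 7 lower, and 2 of 5 ADAMTSL genes were higher and 2 lower.

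**Figure D2:**
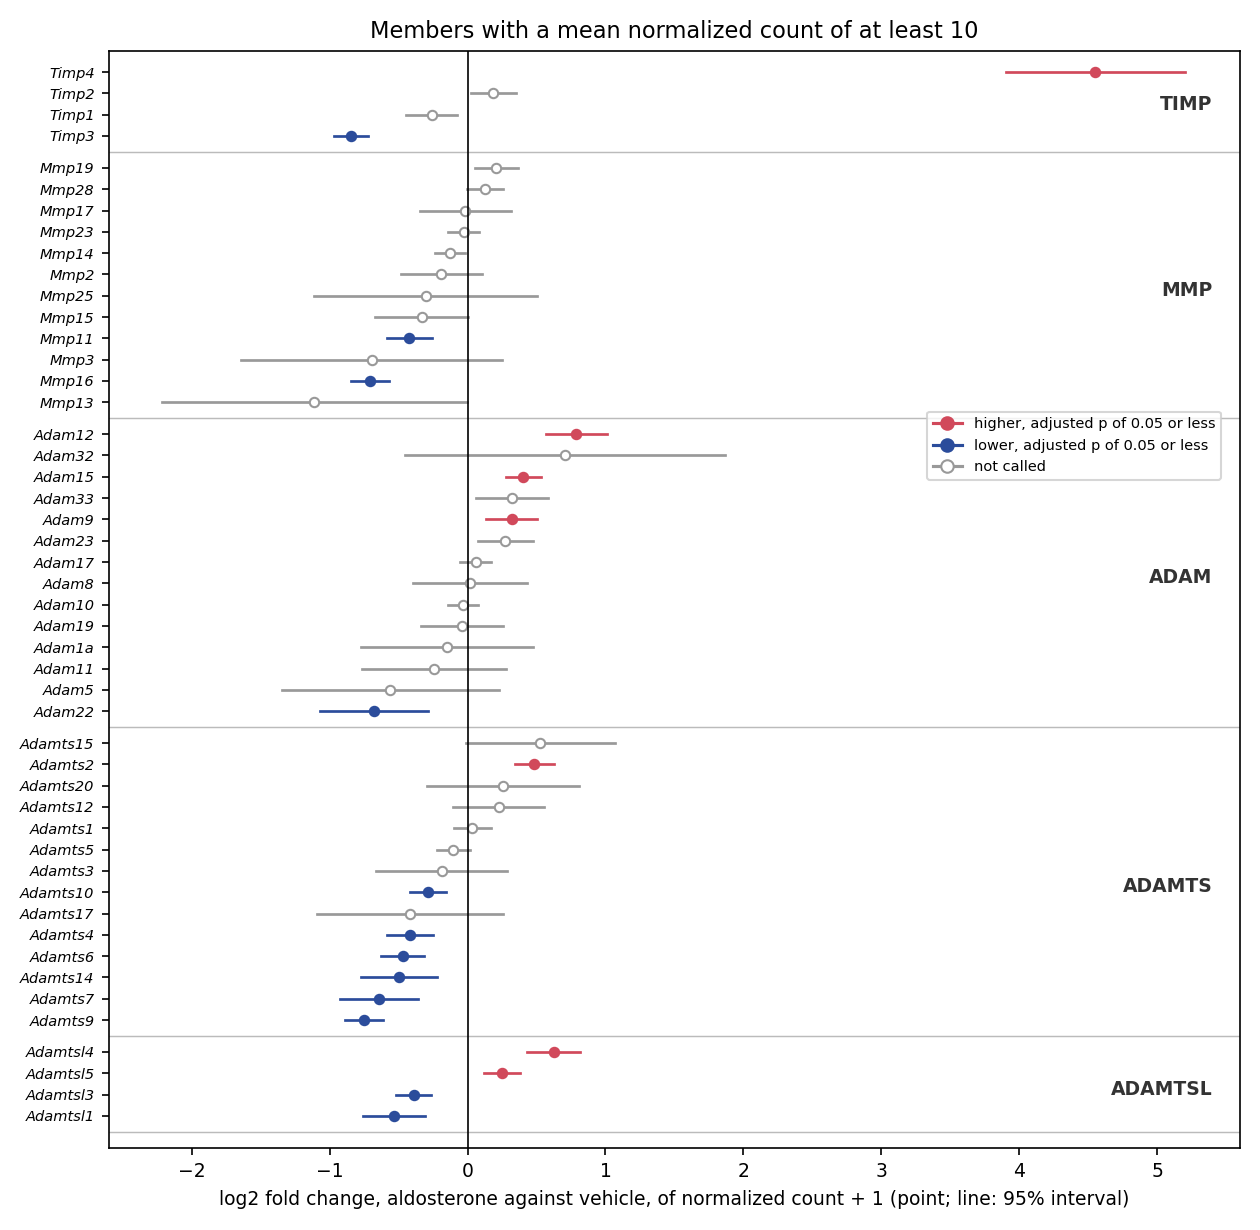
Log2 fold change of the normalized count plus 1, aldosterone against vehicle, with its 95% interval from limma, for the 48 genes with a mean of at least 10, ordered within each family. Filled points passed the adjusted p of 0.05 and open grey points did not; Timp4 lies far to the right at 4.55, most others lie within 1 log2 unit of 0, and the filled points of the MMP family are all on the lower side.

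The largest difference was in an inhibitor. Timp4, a TIMP known from heart and skeletal muscle, had normalized counts of 4.19, 5.85, 4.88 and 2.15 in the vehicle libraries and 114, 130.1, 97.6 and 134 in the aldosterone libraries. Every aldosterone library was far above every vehicle library. The log2 fold change was 4.55 (95% interval 3.90 to 5.20, adjusted p = 3.41e-08, limma). In recovered reads, 17 were counted on Timp4 over the 4 vehicle libraries and 500.0 over the 4 aldosterone libraries, a 27.3-fold difference per read on genes with an exact binomial 95% interval of 16.9 to 47.2 that covers counting error only. The level of Timp4 remained the lowest of the 4 inhibitors, at 0.831 RPKM with aldosterone and 0.0307 with vehicle. These levels use the deposited length of 5894 bases. With the 1416 exon bases of the older Gencode M1 annotation, an alternative chosen after the data were seen, they were 3.46 and 0.128, still the lowest of the 4, whose other lengths were equal in both sources.

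Timp4 lies on chromosome 6 at positions 115218853 to 115229166, within the gene Syn2 on the opposite strand. Likewise, Timp3 lies within Syn3 on chromosome 10 and Timp1 within Syn1 on chromosome X, while Timp2 has no synapsin gene around it. Synapsins are proteins of synaptic vesicles. Syn2 was also higher with aldosterone, with normalized counts of 4.19, 5.85, 1.22 and 2.15 in the vehicle libraries and 42.6, 30.8, 23.9 and 27.5 in the aldosterone libraries (log2 fold change 2.99, adjusted p = 1.75e-04, limma). Syn2 was looked up after the values of Timp4 were seen, and both genes separated the treatments completely. Whether reads were counted by strand is not given in the sources used here, so how reads were divided between both genes cannot be told apart. In the older Gencode M1 annotation of another build, exons of Timp4 and Syn2 share 0 bases, those of Timp1 and Syn1 also 0, and those of Timp3 and Syn3 share 1733. Timp4 has 1416 exon bases there, while its deposited length is 5894. Overlap with Syn2 in the gene model used for counting is therefore not known here. Syn3 had mean normalized counts of 22.5 with vehicle and 14.1 with aldosterone (adjusted p = 0.281, limma), and Syn1 of 100.6 and 100.4 (adjusted p = 0.984, limma).

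Timp3, which is held in the matrix and inhibits ADAM17 and the aggrecanases besides MMPs, was lower with aldosterone. Its normalized counts were 47599, 48099, 45619 and 45308 with vehicle and 25218, 25106, 26815 and 26619 with aldosterone. The 2 groups were far apart and narrow, and the log2 fold change was -0.85 (95% interval -0.97 to -0.72, adjusted p = 3.97e-08, limma). Timp1, a secreted inhibitor often raised in fibrotic tissue, had normalized counts of 4819.7, 4852, 4423 and 3867 with vehicle and 3835, 4368, 3221 and 3589 with aldosterone. These groups overlapped, but within each sample number both aldosterone libraries were below both vehicle libraries. The log2 fold change of -0.26 was not called (adjusted p = 0.0735, limma) and was called with the sample number as a block (adjusted p = 1.54e-04). Timp2, which also takes part in the activation of pro-Mmp2 by Mmp14, had normalized counts of 70039, 68359, 78304 and 78952 with vehicle and 79923, 79101, 90876 and 86509 with aldosterone. All aldosterone libraries were above all vehicle libraries by a small margin, with a log2 fold change of 0.19 (adjusted p = 0.162, with the block 7.25e-04, limma).

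Together these values changed the make-up of the TIMP transcripts more than their sum. The summed TIMP level was 1218 to 1314 RPKM with vehicle and 1130.3 to 1262 with aldosterone, which overlap. Timp3 was 19.3% ± 1.09 (SD, n = 4) of that sum with vehicle and 11% ± 0.110 with aldosterone. Timp2 was 63.7% ± 3.12 and 74.3% ± 2.32, and Timp1 17.0% ± 2.10 and 14.6% ± 2.31. Timp4 rose from 0.00244% to 0.0697% of the sum, or from 0.0102% to 0.289% with the Gencode M1 length. In the aldosterone libraries Timp3 thus ranged from 10.9% to 11.1%, below the lowest vehicle library at 18.3%.

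**Figure D3:**
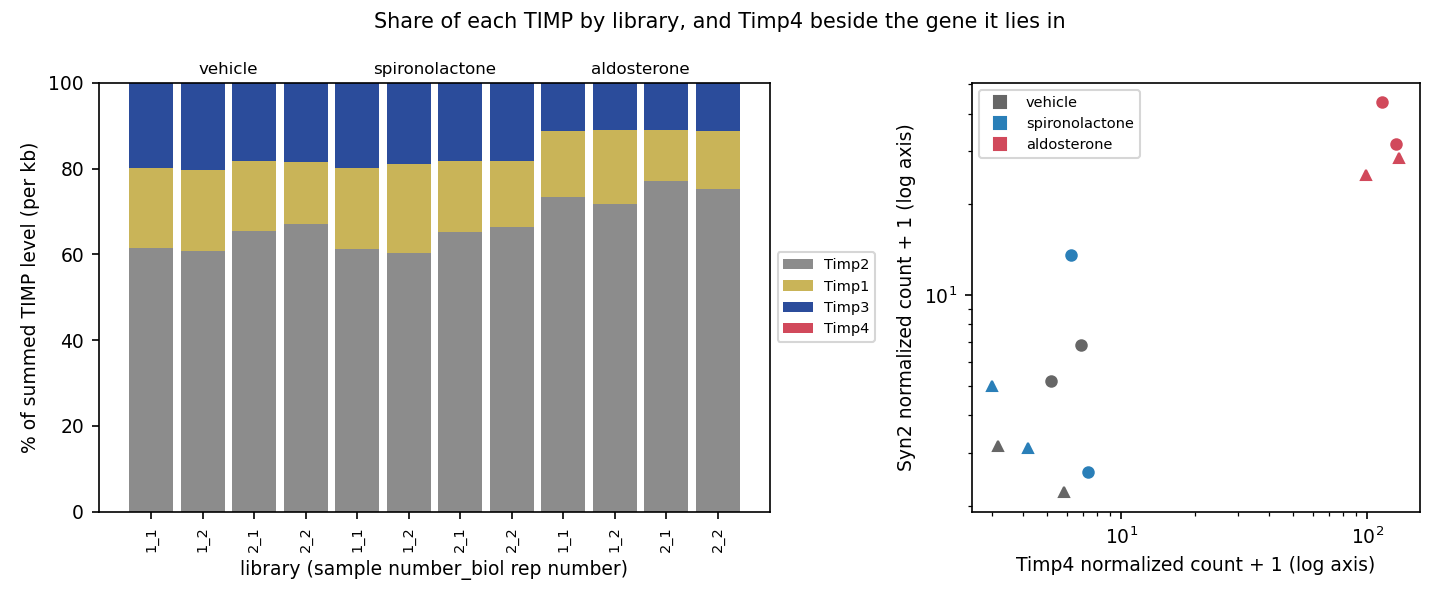
Left, the share of each TIMP gene in the summed TIMP level per library, in % of RPKM, with Timp3 near 19.3% in the vehicle and 11% in the aldosterone libraries and Timp4, at most 0.0779%, too thin to be seen. Right, the normalized counts plus 1 of Timp4 and of Syn2, the gene that surrounds it, on log axes; the 4 aldosterone libraries lie apart from all others on both axes.

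Sequences before the transcription start of 4 genes are given because these genes changed in opposite directions or because, in Mmp11, the sequence holds a half-site for steroid receptors. RefSeq (GRCm38.p6) gave 48 starts for 44 of the 70 genes, and 250 bases before each were searched on both strands. Capitals mark TGTTCT, the half-site shared by the MR and the glucocorticoid receptor, the AP-1 motif TGANTCA, the TATA box TATAAA and the GC box CCGCCC, or the reverse complement of each. No 2 different motifs overlapped in these 48 windows. The first 2 sequences are from genes higher with aldosterone and the last 2 from genes lower with it.
Timp4, chr6:115252206-115252455, minus strand: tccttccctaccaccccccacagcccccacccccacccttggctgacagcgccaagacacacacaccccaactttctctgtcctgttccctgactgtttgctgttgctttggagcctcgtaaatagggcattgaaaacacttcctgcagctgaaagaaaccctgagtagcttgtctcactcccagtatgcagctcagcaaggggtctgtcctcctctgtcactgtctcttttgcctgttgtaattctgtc
Adamts2, chr11:50601835-50602084, plus strand: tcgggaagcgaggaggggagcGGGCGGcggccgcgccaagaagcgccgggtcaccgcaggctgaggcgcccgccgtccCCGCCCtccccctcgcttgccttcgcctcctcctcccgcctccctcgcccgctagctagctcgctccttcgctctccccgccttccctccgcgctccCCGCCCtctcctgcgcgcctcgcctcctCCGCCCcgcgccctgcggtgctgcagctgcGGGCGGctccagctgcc
Timp3, chr10:86300162-86300411, plus strand: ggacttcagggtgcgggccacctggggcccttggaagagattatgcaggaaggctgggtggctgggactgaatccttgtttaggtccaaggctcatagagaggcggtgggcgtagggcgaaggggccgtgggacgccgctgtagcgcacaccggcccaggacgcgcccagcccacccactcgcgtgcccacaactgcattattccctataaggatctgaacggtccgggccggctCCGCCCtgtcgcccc
Mmp11, chr10:75932503-75932752, minus strand: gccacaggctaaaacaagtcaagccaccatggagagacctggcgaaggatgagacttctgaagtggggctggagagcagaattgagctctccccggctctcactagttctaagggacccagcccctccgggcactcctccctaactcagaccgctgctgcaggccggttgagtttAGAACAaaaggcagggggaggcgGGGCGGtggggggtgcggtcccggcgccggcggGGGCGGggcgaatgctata
The Timp4 window holds none of these letters. The Adamts2 window has 5 GC boxes and the Timp3 window 1, which begins 15 bases before the start. The Mmp11 window has a half-site that begins 75 bases before the start and 2 GC boxes. Across the 48 windows, TGTTCT was found in 8 (16.7%, beside 16.1% of all 32851 RefSeq promoters), TGANTCA in 7 (14.6% beside 6.75%), TATAAA in 6 (12.5% beside 12.4%) and CCGCCC in 24 (50.0% beside 32.7%). Of the genes called with aldosterone, 5 higher and 7 lower ones have a window, of which 4 and 6 hold CCGCCC, 0 and 1 hold TGTTCT, and none holds TGANTCA or TATAAA. The full palindrome, in which the reverse complement of the half-site is followed after 3 bases by the half-site itself, occurred in 3 of all windows and in 0 of the 48. These matches describe letters only.

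Among the MMPs, Mmp16 and Mmp11 were lower with aldosterone. Mmp16 is a membrane-type MMP that, like Mmp14, can activate pro-Mmp2. Its normalized counts were 818, 801, 893 and 853 with vehicle and 501, 509, 533 and 516 with aldosterone, which do not overlap (log2 fold change -0.71, 95% interval -0.84 to -0.57, adjusted p = 1.34e-06, limma). Mmp11, or stromelysin-3, a secreted MMP of stromal fibroblasts, had normalized counts of 1083, 1106, 951 and 1070.2 with vehicle and 843, 836, 775 and 690.0 with aldosterone, also without overlap (log2 fold change -0.42, adjusted p = 0.00125, limma). Both are minor by level, Mmp16 at 3.45 and Mmp11 at 14.2 RPKM.

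The abundant MMPs differed little. Mmp14 had normalized counts of 17891, 17534, 17807 and 18046 with vehicle and 16519.9, 15880.2, 16634 and 16132 with aldosterone. The aldosterone libraries were all below the vehicle libraries, yet by only -0.13 on the log2 scale (adjusted p = 0.14, with the block 0.0127, limma). Mmp2 had normalized counts of 6098, 5756, 8262 and 8258 with vehicle and 5226, 4934, 7558 and 7235 with aldosterone. Its values followed the sample number more than the treatment, being higher in all libraries of sample number 2, and within each number both aldosterone libraries were below both vehicle libraries. The log2 fold change of -0.19 was not called (adjusted p = 0.5, limma) but was with the block (adjusted p = 6.17e-04). Mmp23 had a log2 fold change of -0.03 with a 95% interval of -0.14 to 0.08 (adjusted p = 0.813, limma). The collagenase Mmp13, singled out after its values were seen, had normalized counts of 40.3, 22.4, 92.7 and 119 with vehicle and 15.5, 10.6, 49.7 and 50.2 with aldosterone, with a log2 fold change of -1.11 (adjusted p = 0.236, with the block 0.00115, limma). It also varied mostly with the sample number. Over the 12 MMP genes with a mean of at least 10, the median log2 fold change was -0.25.

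**Figure D4:**
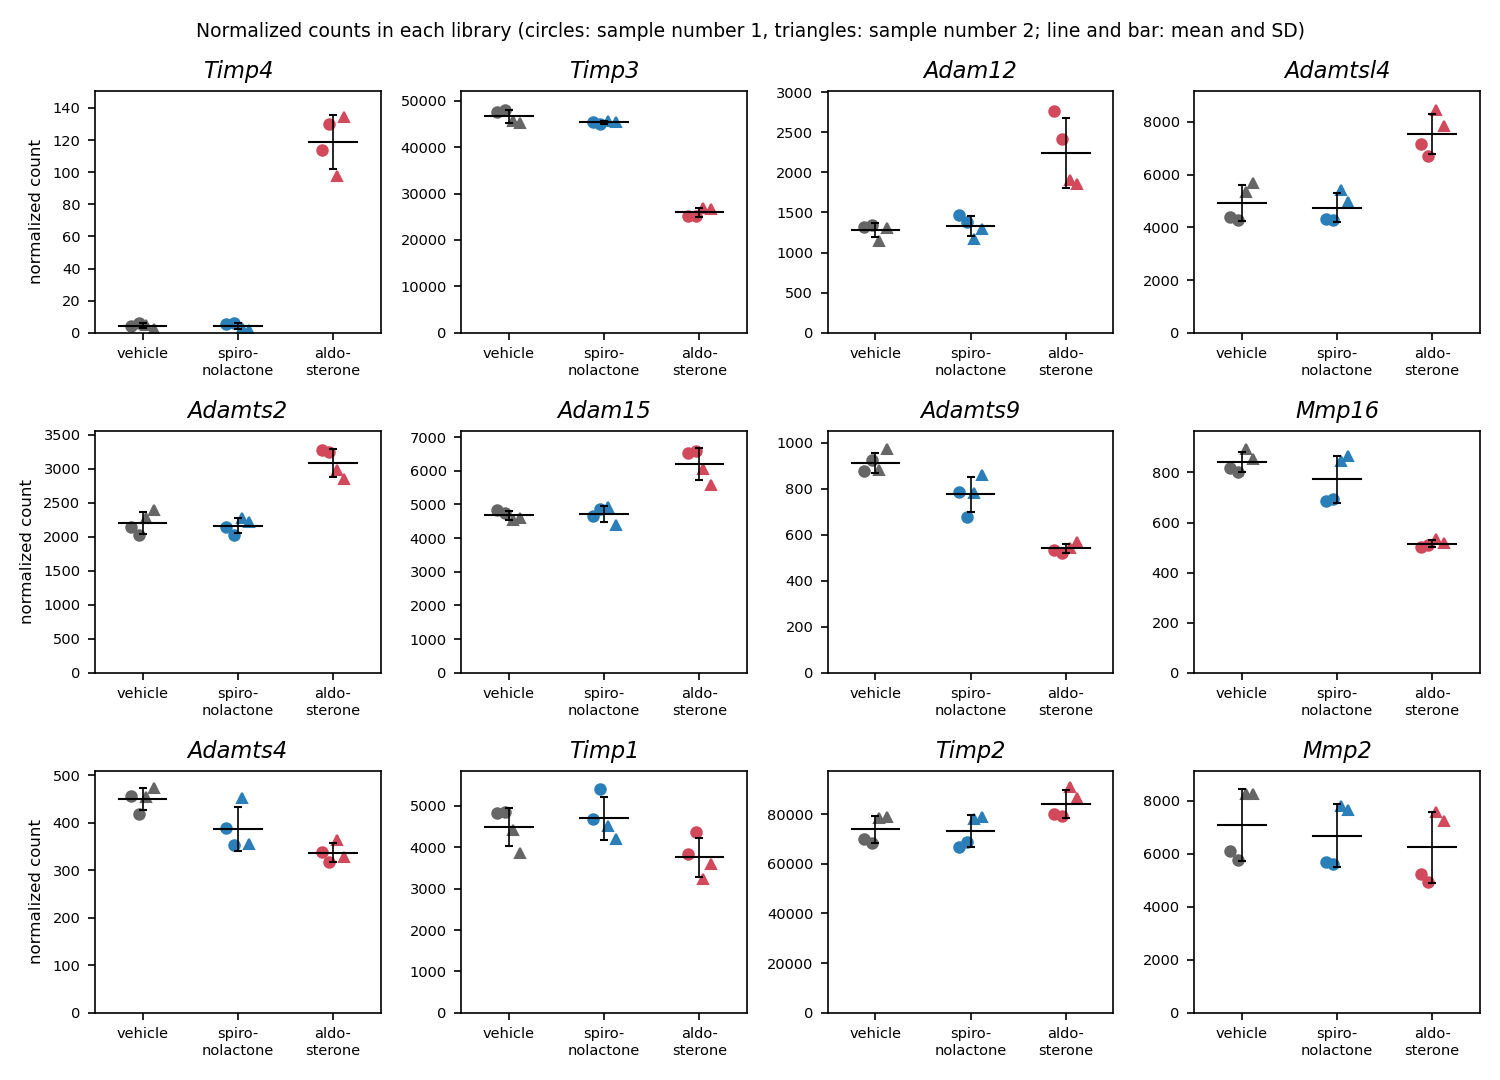
Normalized counts of 12 genes in each library, by treatment, with circles for sample number 1, triangles for sample number 2, and a line and bar for the mean and SD of 4 libraries. The vehicle and aldosterone values come from 1 deposited table and the spironolactone values from another, normalized separately. Timp4, Timp3, Adam12 and Adamts9 separate by treatment, while Mmp2 separates by sample number.

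Of the called ADAM genes, 4 were higher and 1 lower. Over the 14 ADAM genes with a mean of at least 10, the median log2 fold change was 0.04, and 10 were not called. The summed ADAM level was nevertheless higher without overlap, at 151 to 169.8 RPKM with vehicle and 173 to 202 with aldosterone. Adam12, a sheddase and adhesion protein known from myoblast fusion and activated stromal cells, had normalized counts of 1313, 1341, 1148 and 1309 with vehicle and 2768, 2418, 1909 and 1850.1 with aldosterone. The groups did not overlap, and the aldosterone libraries of sample number 1 were the highest (log2 fold change 0.79, 95% interval 0.57 to 1.01, adjusted p = 7.06e-05, limma). Adam15, a membrane protease that also binds integrins, had normalized counts of 4831, 4736, 4546 and 4586 with vehicle and 6540.0, 6603, 6067 and 5569.9 with aldosterone, again without overlap (log2 fold change 0.40, adjusted p = 2.15e-04, limma). Adam9 had normalized counts of 7152, 7089, 5937 and 5820.2 with vehicle and 9321, 8547, 7132 and 7464 with aldosterone. Its groups overlapped slightly across sample numbers, and its log2 fold change of 0.32 was called (adjusted p = 0.0267, limma) but lost the call when any 1 of the 8 libraries was left out (adjusted p = 0.0902 to 0.233).

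Adam22, a catalytically inactive member that binds LGI proteins at synapses, was the ADAM gene called lower, with normalized counts of 163, 205, 255 and 298 with vehicle and 109, 121, 180.5 and 162 with aldosterone (log2 fold change -0.68, adjusted p = 0.026, limma). These groups overlapped, and the call was likewise lost without any 1 of the 8 libraries (adjusted p = 0.0595 to 0.232). The main sheddases did not pass the test. Adam10 had a log2 fold change of -0.03 (95% interval -0.14 to 0.08, adjusted p = 0.772, limma), and Adam17, which releases TNF and ligands of the EGF receptor, of 0.06 (-0.06 to 0.17, adjusted p = 0.627, limma). Adam18, a gene of the germ line, was called higher with 0 reads in the vehicle libraries and 7 in all aldosterone libraries together, at most 2 in any of them. Since no library reached the floor of 3 reads, no fold is given for it, and it was named only because it passed both thresholds.

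In the ADAMTS family, 7 of the 8 called genes were lower. Adamts9, a proteoglycan-cleaving enzyme, had normalized counts of 878, 924, 879.9 and 971 with vehicle and 533, 522, 540.5 and 569 with aldosterone. There was a wide gap between the groups (log2 fold change -0.75, 95% interval -0.89 to -0.62, adjusted p = 6.00e-07, limma). The aggrecanase Adamts4 had normalized counts of 457, 419, 454 and 472 with vehicle and 338, 318, 365 and 328 with aldosterone, without overlap (log2 fold change -0.42, adjusted p = 0.00187, limma). The far more abundant proteoglycan-cleaving enzymes Adamts1 and Adamts5 were not called, with log2 fold changes of 0.03 (95% interval -0.10 to 0.17, adjusted p = 0.822) and -0.10 (-0.22 to 0.01, adjusted p = 0.324, limma). Thus 0 of the 7 genes of this role were higher and 2 lower.

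Adamts2, the main enzyme removing the N-propeptide of fibrillar procollagens, was the ADAMTS gene called higher. It had normalized counts of 2143, 2022, 2269 and 2393 with vehicle and 3282, 3240.2, 2982 and 2846 with aldosterone, and the groups did not overlap (log2 fold change 0.48, adjusted p = 8.47e-05, limma). Of the other procollagen N-proteinases, Adamts14 was lower, from 248 ± 39.3 to 175 ± 24.2 normalized counts (SD, n = 4; log2 fold change -0.50, adjusted p = 0.0194, limma), and Adamts3 had a log2 fold change of -0.19 (adjusted p = 0.695, limma). By level, Adamts2 with 11.1 RPKM was the main one, beside 1.82 for Adamts14 and 0.622 for Adamts3. The call of Adamts14 held in only 1 of the 8 fits that left out a library, that without aldosterone library 2_1 (adjusted p of the others = 0.0623 to 0.142).

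The remaining called ADAMTS genes were all lower. Adamts7, which cuts cartilage oligomeric matrix protein, went from 244 ± 46.1 to 154 ± 17 normalized counts (log2 fold change -0.64, adjusted p = 0.004, limma). Its call was lost without aldosterone library 1_2, 2_1 or 2_2 or without vehicle library 1_1 (highest adjusted p = 0.0688). Adamts10, which binds fibrillin, went from 1664 ± 71 to 1366 ± 96 (log2 fold change -0.29, adjusted p = 0.00594, limma), and missed the threshold without aldosterone library 2_1 (adjusted p = 0.0501). Adamts6, its closest relative, went from 716 ± 26.9 to 517 ± 40.3 (log2 fold change -0.47, adjusted p = 3.06e-04, limma) and was called without each library. Adamts18 was rare, with 4, 12, 16 and 17 reads in the vehicle libraries and 0, 0, 2 and 1 in the aldosterone libraries. Every aldosterone library was under the floor of 3 reads, and the summed reads were 17.6-fold lower per read on genes, with an exact binomial 95% interval of 5.68 to 88.3 that covers counting error only (adjusted p = 0.00236, limma).

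Among the ADAMTSL genes, which organize fibrillin microfibrils, 2 rose and 2 fell. Adamtsl4, the most abundant of them, had normalized counts of 4399, 4264, 5326 and 5668 with vehicle and 7179, 6723, 8459 and 7858 with aldosterone. It separated by treatment, and within each treatment the libraries of sample number 2 were higher (log2 fold change 0.63, 95% interval 0.43 to 0.82, adjusted p = 1.60e-04, limma). Adamtsl5 was slightly higher, from 2062 ± 143 to 2449 ± 114 normalized counts (log2 fold change 0.25, adjusted p = 0.0133, limma), and held in 2 of the 8 fits that left out a library, those without aldosterone 2_2 and without vehicle 1_2. Adamtsl3 had normalized counts of 5489, 5579.6, 4626 and 5316 with vehicle and 3870.0, 3981, 4061 and 4058 with aldosterone, a lower level without overlap (log2 fold change -0.39, adjusted p = 3.40e-04, limma). Adamtsl1 was lower, with normalized counts of 912, 974, 1126 and 1256 against 683, 619, 799 and 842, also without overlap (log2 fold change -0.54, adjusted p = 0.00283, limma). Its call held in 2 of the 8 fits, those without aldosterone 2_2 and without vehicle 1_1 (highest adjusted p of the others = 0.0782). By summed level the ADAMTSL genes ran from 94.6 to 109.9 RPKM with vehicle and from 109 to 130.0 with aldosterone, the ADAM genes from 151 to 169.8 and from 173 to 202, the ADAMTS genes from 229.5 to 261 and from 221 to 236, and the MMP genes from 289.9 to 329.7 and from 254 to 292. The ADAM ranges alone did not overlap.

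Adamts7 overlaps the gene Tbc1d2b, which lies on the opposite strand in the file's positions. Tbc1d2b had mean normalized counts of 2309 with vehicle and 2885 with aldosterone (log2 fold change 0.32, adjusted p = 8.89e-04, limma), and was thus higher where Adamts7 was lower. In Gencode M1 the exons of both genes share 122 bases.

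Whether the aldosterone effect differed between the sample numbers was tested as an interaction in limma. Of the 68 genes, 0 were called (4 of all 27319 were), and 11 had an unadjusted p under 0.05. The smallest of these was that of Adamts2, with log2 fold changes of 0.65 in sample number 1 and 0.32 in sample number 2, followed by Adam12 with 0.96 and 0.62, so both rose in both numbers.

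Spironolactone compared to vehicle treatment changed 0 of the 68 genes in its table (limma, adjusted p of at most 0.05), as it did 0% of all genes in either direction. DESeq2 and edgeR on the recovered reads and limma blocked on the sample number also called 0 of them. At an unadjusted p under 0.05 there were 2 of the 68 genes, beside 1251 of all 27598. In 0 genes were all spironolactone libraries above all vehicle libraries and in 2 all were below, against 1.39% and 1.24% of all genes. The genes with the smallest p were Adamts9 (log2 fold change -0.25, 95% interval -0.40 to -0.09), Adamts4 (-0.23, -0.42 to -0.05) and Adamts10 (-0.11, -0.23 to 0.01), with adjusted p = 0.934 for each in limma. Normalized counts of Adamts9 were 882, 931, 886 and 978 with vehicle and 787, 677, 782 and 861 with spironolactone, all below the vehicle libraries while the aldosterone libraries of the other table, which was normalized separately, were lower still. Adamts4 had 459, 422, 457 and 475 with vehicle and 388, 353, 452 and 356 with spironolactone, which overlapped.

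For the genes that aldosterone changed most, the intervals of the spironolactone difference were as follows. Timp4 had 5.25, 6.37, 3.18 and 2 normalized counts in the spironolactone libraries, within the vehicle range but for 2 libraries just outside it, and a log2 fold change of -0.06 with a 95% interval of -1.11 to 1.00. Timp3 had 45444, 44944, 45585 and 45426, with a log2 fold change of -0.05 (-0.17 to 0.07). Adam12 had a log2 fold change of 0.04 (-0.11 to 0.20), Adamtsl4 of -0.05 (-0.24 to 0.13) and Mmp16 of -0.14 (-0.31 to 0.03). These intervals treat the 4 libraries of each group as separate samples. They measure partly the spread between plates and do not bound differences across mice. The interval of Timp4 was by far the widest of the 5.

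Aldosterone was also compared directly with spironolactone, in a separate table. This comparison shares the aldosterone libraries with the one against vehicle, so it is no separate support for it, and the values are given side by side. Of 69 genes in the table, 10 were higher and 11 lower with aldosterone (limma, adjusted p of at most 0.05), beside 4.93% and 3.96% of all genes. Timp4 had a log2 fold change of 4.62 here and 4.55 against vehicle, Timp3 of -0.80 and -0.85, Adam12 of 0.75 and 0.79, Adamtsl4 of 0.68 and 0.63, and Adamts2 of 0.52 and 0.48. Mmp16 had -0.56 and -0.71, and Adamts9 -0.51 and -0.75. All 7 were called in both (highest adjusted p = 2.06e-04 here, limma). Timp1 was called in this table (log2 fold change -0.32, adjusted p = 0.0281, limma), as were Adam33 (0.53), Adam23 (0.34) and Mmp19 (0.25). Against vehicle, none of these 4 was called without the block and each was with it (adjusted p with the block = 0.0231 for Adam33, 4.71e-05 for Adam23 and 0.0121 for Mmp19, limma). Of the genes called against vehicle, 4 were not called here, namely Adamts4 (log2 fold change -0.18, adjusted p = 0.311, limma), Adamts10 (-0.17, 0.114, with the block 0.0243), Adam22 (-0.53, 0.0702, with the block 4.00e-04) and the rare Adam18 (adjusted p = 0.226). The counts fell to 6 higher without aldosterone library 1_1 or 1_2 or spironolactone library 2_2. They fell to 5 or 6 lower without any 1 library other than aldosterone 1_1. With the 2 libraries of each sample number averaged, 2 were higher and 1 lower.

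The regulators, partners and substrates of these enzymes were described from 82 genes in 9 lists drawn from textbook knowledge. Of the 80 in the aldosterone and vehicle table, 17 were higher, 15 lower and 48 not called (limma, adjusted p of at most 0.05), and with the sample number as a block 23 were higher and 28 lower. Fewer were lower without aldosterone library 1_2 (9), aldosterone 2_2 (7), vehicle 1_1 (9) or vehicle 2_1 (9). With the libraries of each sample number averaged, 2 were lower. The median log2 fold change of the 74 with a mean of at least 10 was 0.0071. The background shares given above apply only to the fit of all libraries without a block. Both thresholds were passed by 5 genes that were higher and 2 that were lower.

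Of 9 genes listed as inhibitors other than TIMPs, not all of which inhibit metalloproteinases, 3 were higher and 1 lower. Cst3 (cystatin C), which inhibits cathepsins and not metalloproteinases, had normalized counts of 6027, 5606, 6727 and 5782 with vehicle and 10574, 12152, 15762 and 17192 with aldosterone (log2 fold change 1.18, adjusted p = 2.87e-06, limma). Spock2, a testican that modulates membrane-type MMPs, had 51.2, 61.5, 70.8 and 62.3 and 134, 161, 238 and 239 (log2 fold change 1.60), and A2m, the broad protease inhibitor alpha-2-macroglobulin, 5.87, 7.81, 6.1 and 14 and 41.3, 34.7, 35.9 and 20.4 (log2 fold change 1.88). None of these 3 overlapped between treatments. The related Spock3 was lower (log2 fold change -0.86, adjusted p = 0.0196, limma), a call that held in 1 of the 8 fits that left out a library, that without vehicle 1_2 (highest adjusted p of the others = 0.134). Reck, a membrane-anchored MMP inhibitor chosen after its values were seen, had a log2 fold change of 0.14 (adjusted p = 0.398, with the block 0.0136, limma).

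Of 17 substrates of shedding in the table, 3 were higher and 3 lower. Tgfa, a ligand of the EGF receptor that Adam17 releases, had normalized counts of 68.8, 69.3, 109.8 and 139.5 with vehicle and 718, 671, 765 and 762 with aldosterone. It was the largest change of the 80 genes (log2 fold change 2.96, 95% interval 2.59 to 3.34, adjusted p = 7.71e-09, limma). Il6ra, the interleukin-6 receptor subunit that is shed by ADAMs, had 97.3, 94.7, 118 and 114 and 327, 315, 329 and 352 (log2 fold change 1.64). Nrg1, a ligand of ErbB receptors, was lower, with 206, 241, 268 and 322 and 118, 131, 131 and 131 (log2 fold change -1.0, adjusted p = 5.41e-05, limma). Ligands of the EGF receptor family thus moved in both directions, as Hbegf, chosen after its values were seen, also fell by 0.57 on the log2 scale (adjusted p = 0.00248, limma). The call of Hbegf was lost without aldosterone 2_1 or 2_2 or vehicle 1_2 (highest adjusted p = 0.0675).

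Of 17 matrix substrates, 3 were higher and 3 lower, and 4 and 10 with the block. Examples picked after their values were seen were Vcan (versican, a substrate of the proteoglycan-cleaving ADAMTS enzymes), with a log2 fold change of 0.85 (adjusted p = 8.97e-08, limma), Col4a1 of basement membranes with 0.88, Thbs2 with -0.65 and the fibrillar collagen gene Col3a1 with -0.43, all called. Col1a1 had a log2 fold change of -0.34 (adjusted p = 0.0527, with the block 4.68e-05, limma). Of 5 astacins and procollagen C-proteinase genes, Pcolce2, an enhancer of C-propeptide removal, was higher (log2 fold change 0.67, adjusted p = 5.81e-07, limma) and the proteinase Bmp1 had -0.01 (95% interval -0.13 to 0.10).

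In the other lists, 0 of 4 proprotein convertases, which cut off the inhibitory propeptides of many of these enzymes, were called (limma, with 1 under an unadjusted p of 0.05 and 1, Pcsk6, called lower with the block). Of 3 plasminogen activation genes 1 was lower, of 9 sheddase partners 3 were higher and 1 lower, and of 8 cell surface partners 1 was higher and 4 lower. Of 8 cathepsins and other matrix proteases 3 were higher and 2 lower, among them Dpp4, a dipeptidyl peptidase of fibroblast membranes, with normalized counts of 36.9, 38.1, 54.9 and 62.3 with vehicle and 10.3, 13.5, 29.5 and 23.5 with aldosterone (log2 fold change -1.35, adjusted p = 0.0133, limma). The call of Dpp4 held in 1 of the 8 fits that left out a library, that without aldosterone 2_1 (highest adjusted p of the others = 0.124).

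**Figure D5:**
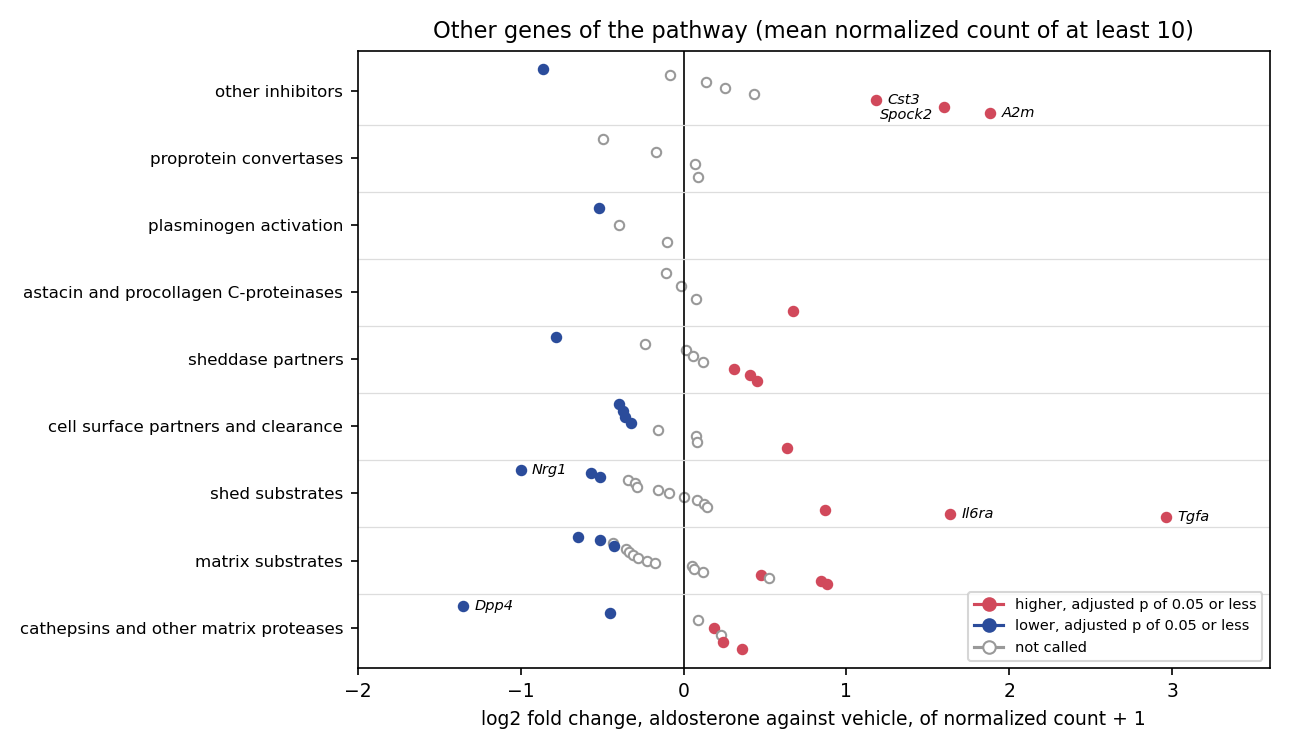
Log2 fold change of the normalized count plus 1, aldosterone against vehicle, for the genes of the 9 lists with a mean of at least 10, 1 row per list. Filled points passed the adjusted p of 0.05, and names mark those that also passed an absolute log2 fold change of 1; changes in both directions occur in most lists, and Tgfa at 2.96 lies farthest from 0.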

How the data were processed

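Gene expression was measured by RNA sequencing in 12 libraries, grouped by the treatment in the labels. The authors aligned reads and counted them per gene; the submitters' processing notes name HISAT2 2.0.5, featureCounts 1.5.0-p3 and mm39, while the methods name mm9. Of the genes matched by gene identifier, 70 of 20645 began within 1000 bases of their start in NCBIM37. Of those matched by symbol, 685 of 22873 did so in GRCm38.p6, so positions are given as deposited. The deposited values are a signal, namely read counts per gene scaled by library size factors, in 1 table per pair of treatments, normalized separately. Columns of the authors' own fold changes and p-values were not used. Whole reads could be recovered for 100% of values, which gave 19136923 to 30219185 reads on genes per library. Intervals on reads, and the floor of 3 reads, cover counting error only.

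Every gene of a table was fitted with limma 3.58.1 (R 4.3.3, trend) on log2 of the value plus 1 with treatment alone, and p-values were adjusted by Benjamini-Hochberg over the table. The call was an adjusted p of at most 0.05. The unit being normalized counts, edgeR 4.0.16 and DESeq2 1.42.0 were run on recovered reads as alternatives. The other alternatives were another added value (0.5), a mean of at least 10, TMM scaling, blocks and each library left out. A further alternative averaged the libraries of each sample number. The scripts were tested on simulated data. Levels are recovered reads scaled to the deposited gene length in kb and to the reads on genes of the library (RPKM).

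Whether numbers in the labels pair the libraries was checked by correlating deviations from group means. Between treatments, libraries that share a sample number correlated in all 24 pairs (mean r = 0.328, from 0.187 to 0.412), and those with the same biol rep number did not (mean -0.00505, from -0.452 to 0.412), so the sample number of the labels was used as the block. The labels do not say which number is the mouse.

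Members and lists were chosen with earlier results of these data known. Named were the TIMP genes, members with a mean of at least 10, a call and a log2 fold change beyond 0.5 either way with aldosterone, the 4 with the highest level in each of MMP, ADAM and ADAMTS with ADAMTSL, and the 3 smallest p with spironolactone, 24 in all. From the pathway lists, genes past an absolute log2 fold change of 1 and the 3 largest called changes each way with a mean of at least 10 were named. All other genes named were chosen after their values were seen, among them Adam18, Adam23, Adam33, Adamts2, Adamts3, Adamts6, Adamts14, Adamts18, Adamtsl5, Mmp3, Mmp13, Mmp19 and the overlapping genes. Protein sequences were not used here.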

Additional observations from a re-analysis of the deposited data

Results flagged for a closer look

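Each of the 24 genes named by rule was examined in each of the 3 groups of 4 libraries, 72 groups in all, for a library whose gap to its nearest neighbour was too large a part of the group's range by Dixon's test at 95%. Chance flags about 1 group in 20, and 3 of the 72 were flagged. Adam12 in vehicle library 2_1 had 1148.35 normalized counts beside 1309 to 1341 in the other 3. Adamts10 in spironolactone library 1_2 had 1450.84 beside 1577 to 1597.5. Mmp23 in spironolactone library 1_1 had 2533.29 beside 2697 to 2729. All 3 were low, and they lay in 3 different libraries.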

How the results depend on the processing

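For aldosterone against vehicle, the 8 genes called higher became 13 when the sample number entered as replicate block. With the libraries of each sample number averaged, the 8 higher became 3 and the 13 lower became 4. Shares over all genes under these alternatives are not given here. The 2 that were higher and past the fold threshold became 1 with a mean of at least 10 and with DESeq2. They also became 1 with edgeR with and without a filter, the biol rep block and averaged libraries. The 1 that was lower became 0 with a mean of at least 10, 2 with the sample block and 0 with averaged libraries. In the pathway lists, the 15 called lower became 28 with the sample block and 2 with averaged libraries. The 2 of them past the fold threshold became 1 with TMM scaling and 1 with averaged libraries. For aldosterone against spironolactone, averaged libraries gave 2 higher and 1 lower in place of 10 and 11. The 1 lower gene past the fold threshold became 0 with a mean of at least 10, edgeR with filterByExpr and averaged libraries.

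Leaving out 1 library at a time gave 6 to 8 higher and 9 to 10 lower genes against vehicle, 7 to 12 lower pathway genes with 0 to 3 past the fold threshold, and 6 to 8 higher, 1 to 2 of them past the fold threshold, and 5 to 8 lower genes against spironolactone. Pathway genes past the fold threshold and lower numbered 0 without aldosterone library 1_1 or vehicle 2_1, and 1 without aldosterone 1_2 or 2_2 or vehicle 2_2.

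Of single named genes, 413 values under an alternative kept direction and call, 37 lost the call, 8 gained it and 1 changed sign, that of Mmp23 without aldosterone library 2_1 (log2 fold change 0.0022, adjusted p = 0.989, limma, and -0.0434 to 0.0022 over the left-out libraries). The sample block added calls for Mmp2, Mmp14, Timp1 and Timp2 and changed no other call of a gene named by rule. Spironolactone against vehicle gave 0 calls among the 68 genes under every alternative run. Lengths from RefSeq were not run. With exon lengths of Gencode M1, added after the data were seen, levels of Timp4 were higher (3.46 with aldosterone) and those of the other TIMP genes equal. With 2 mice per treatment, spread between animals is poorly known, and genes near 3 reads cannot be ranked.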
